A study of Mus musculus with 2 samples.

Results

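Heat shock chaperones bind unfolded or newly made proteins and help them fold, keep their clients active, or hand them on for degradation. Many of these chaperones use ATP. The 10 genes described here encode chaperones of the cytosol and of the mitochondrial matrix: the HSP70 proteins Hspa8, Hspa1a and Hspa1b, their partners Dnajb1 and Hsph1, the HSP90 proteins Hsp90aa1 and Hsp90ab1, the small heat shock protein Hspb1, and the mitochondrial chaperonin Hspd1 with its lid Hspe1. The rule that picks them is a list of symbols, drawn up with earlier results of these data known, and each of the 10 was found among the 43346 Ensembl genes of each gene table. They have 41 annotated transcripts in the transcript tables. Chaperones of the endoplasmic reticulum are not among them and serve for comparison. On GRCm38 (mm10), the HSP70 genes lie at chr9:40800984-40810087 (Hspa8), chr17:34969190-34972156 (Hspa1a) and chr17:34956436-34959238 (Hspa1b), and their partners at chr8:83608193-83612653 (Dnajb1) and chr5:149614287-149636376 (Hsph1). The HSP90 genes lie at chr12:110690605-110702728 (Hsp90aa1) and chr17:45567775-45573271 (Hsp90ab1), Hspb1 at chr5:135887919-135889563, Hspd1 at chr1:55077835-55088243 and Hspe1 at chr1:55088132-55091307.

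The study sequenced polyA-selected RNA from the liver of 1 female C57BL/6J mouse, an adult of 10 weeks, with no treatment or engineered allele named in the labels. The extraction kit, from QIAGEN, is made for fatty tissue. The series holds 2 libraries, which the labels call technical replicates 1 and 2 of biological replicate 1, and the second is dated to May 2015. Both belong to 1 group, so the design holds no comparison between conditions, each SD below is the spread between 2 technical libraries (n = 2), and no p-value is given. The expected counts, which are estimated numbers of reads or fragments per gene, summed to 23309905 in library 1 and 19525500 in library 2. Whether the libraries differ through date, handling or preparation cannot be told apart in this design.

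The chaperone system is usually divided into constitutive members, which every cell needs, and inducible members, which heat shock factors switch on when proteins unfold. Hepatocytes make and secrete large amounts of protein and import many enzymes into mitochondria, so the constitutive cytosolic HSP70 and HSP90 and the matrix chaperonin are well known in liver. Heat shock factors bind short inverted repeats of the letters GAA, called heat shock elements, near the start sites of their target genes.

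Heat shock elements are shown first because they are the sequence that several of these genes have in common. The letters searched were GAANNTTC and TTCNNGAA for 2 adjoining units, which read the same on both strands. A 3-unit match adds a further inverted GAA or TTC after any 2 bases, so that it holds 2 overlapping 2-unit matches. Each window ran from 250 bases before to 50 bases after a RefSeq start site (GRCm38.p6). Of 32851 promoter windows in that table, 15.06% held a 2-unit match, 1.96% held at least 2 of them and 0.603% held a 3-unit match. Windows for 7 of the 10 genes were found in the table: Hspd1, Hspe1, Hspb1, Hsph1, Dnajb1, Hspa1a and Hspa1b. Capitals mark the bases covered by the matches.

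Hspe1, chr1:55088053-55088082, plus strand: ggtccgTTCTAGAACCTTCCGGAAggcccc
Hspd1, chr1:55088053-55088082, minus strand: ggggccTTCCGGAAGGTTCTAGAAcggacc
Hsph1, chr5:149636279-149636308, minus strand: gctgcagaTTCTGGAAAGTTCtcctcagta
Hsph1, chr5:149636351-149636380, minus strand: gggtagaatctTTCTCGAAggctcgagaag
Hspb1, chr5:135887791-135887820, plus strand: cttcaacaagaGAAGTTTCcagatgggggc
Hspb1, chr5:135887811-135887840, plus strand: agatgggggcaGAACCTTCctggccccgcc
Hspa1a, chr17:34972242-34972271, minus strand: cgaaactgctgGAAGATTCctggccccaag
Hspa1b, chr17:34959324-34959353, minus strand: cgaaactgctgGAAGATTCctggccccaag

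Hspd1 and Hspe1 stand head to head on chromosome 1, with 107 bases between the first bases of Hspd1-201 and Hspe1-201. The table holds 2 windows for Hspd1, and the one farther upstream (chr1:55088194-55088493) held no match. The same 30 bases appear in the other Hspd1 window and in that of Hspe1, read on opposite strands, and they hold 3 overlapping 2-unit matches and 2 3-unit matches. These bases also lie in an exon of Hspd1-202, an annotated Hspd1 transcript that begins farther upstream. Hsph1 had 3 2-unit matches and 1 3-unit match, in stretches that exons of annotated Hsph1 transcripts overlap. The Hspb1 window had 2 separate 2-unit matches, beginning at -117 and -97 from its start.

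Hspa1a and Hspa1b stand 9951 bases apart on chromosome 17 and are near-identical copies. Their promoter windows differed at 4 of 300 aligned positions and shared 1 identical 2-unit match, beginning at -104 from the start. Their coding parts, of 1923 and 1926 bases, were 99.58% identical, with 8 base differences and 3 gap bases, and 90.6% of the 25-base words of the Hspa1a coding part occur in that of Hspa1b. The stretch below (coding bases 1357 to 1416 of each) is among the few that tell the genes apart, and capitals mark the 2 bases that differ.

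Hspa1a, chr17:34970510-34970569, minus strand: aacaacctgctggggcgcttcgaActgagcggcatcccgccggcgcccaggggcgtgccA
Hspa1b, chr17:34957592-34957651, minus strand: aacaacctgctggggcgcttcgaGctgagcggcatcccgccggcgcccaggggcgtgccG

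The division of counts between Hspa1a and Hspa1b rests on such bases and on the noncoding ends, so the level of each alone depends on it. The deposited posterior SD of the count was 0 for both genes in library 1. In library 2 it was 2.8 beside a mean of 14.36 for Hspa1a, and 2.76 beside 121.38 for Hspa1b. The sum of both levels is also given. It was 0.52 TPM in library 1 and 3.35 TPM in library 2.

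A match describes letters only, and no binding was measured. Both Dnajb1 windows held no match to these letters.

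The HSP70 genes held both ends of the range of levels. Hspa8, the constitutive HSP70 of the cytosol, was the most abundant of the 10 genes in both libraries, at 426.97 TPM in library 1 and 735.54 TPM in library 2 (mean 581 ± 218, SD, n = 2). TPM is a relative abundance of transcripts corrected for their length, so genes of different length can be compared. The difference between the libraries followed GC content, as given below. How far GC content alters a comparison between genes was not tested. Among 15303 nuclear protein-coding genes with a count in either library, Hspa8 ranked 120 in library 1 and 130 in library 2. Its expected counts were 17642 and 23413.

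The heat-inducible HSP70 copies lay at the other end. Hspa1a was at 0.02 TPM in library 1 and 0.33 TPM in library 2 (0.175 ± 0.219, SD, n = 2), from 1 and 14 expected counts. Hspa1b was at 0.5 TPM and 3.02 TPM (1.76 ± 1.78, SD, n = 2), from 30 and 122 expected counts. Each was higher in library 2. The deposited intervals of the posterior mean TPM have a level that is not stated in the sources used here. For Hspa1b they ran from 0.327 to 0.674 in library 1 and from 2.34 to 3.38 in library 2, so they did not overlap. Such intervals are given within each library and do not cover the spread between libraries. The TPM ratio of Hspa8 to Hspa1a and Hspa1b together was 821 in library 1 and 220 in library 2 (520 ± 425, SD, n = 2). The coding part of Hspa8 has 49.1% GC, against 65.0% in Hspa1a and 65.3% in Hspa1b. The constitutive form thus exceeded the inducible copies in each library, with a ratio that the libraries placed far apart.

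The partners of HSP70 were scarce beside it. Hsph1, the HSP110 protein that releases ADP from HSP70, was at 10.89 TPM in library 1 and 13.83 TPM in library 2 (12.4 ± 2.08, SD, n = 2). Dnajb1, a J-domain protein that delivers clients to HSP70 and stimulates its ATPase, was at 2.62 TPM and 12.12 TPM (7.37 ± 6.72, SD, n = 2). The TPM ratio of Hspa8 to Hsph1 was 39.2 in library 1 and 53.2 in library 2. The ratio of Hspa8 to Dnajb1 was 163 in library 1 and 60.7 in library 2, so Dnajb1 moved more than Hsph1 between the libraries.

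Both cytosolic HSP90 genes were abundant. Hsp90ab1, the constitutive form, was at 269.27 TPM in library 1 and 423.78 TPM in library 2 (347 ± 109, SD, n = 2). Hsp90aa1, the form that stress induces in many tissues, was at 131.58 TPM and 71.04 TPM (101 ± 42.8, SD, n = 2). Hsp90ab1 exceeded Hsp90aa1 in each library, by a TPM ratio of 2.05 in library 1 and 5.97 in library 2. The genes moved in opposite directions, and their expected counts gave ratios of 1.30 and 4.94.

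Hspb1 (HSP25), an ATP-independent holdase that keeps unfolding proteins from aggregating, was the gene whose level depended most on the library. It was at 0.37 TPM in library 1, from 6 expected counts, and at 16.09 TPM in library 2, from 178 (8.23 ± 11.1, SD, n = 2). Its rank was 10259 in library 1 and 3873 in library 2. The deposited intervals ran from 0.169 to 0.787 TPM and from 13.1 to 17.6 TPM, without overlap. They too do not cover the spread between libraries.

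The mitochondrial pair was abundant, with similar TPM in both libraries. The median TPM of nuclear protein-coding genes, however, was 1.55 in library 1 and 4.44 in library 2. Scaled by TMM as described below, the log2 folds of Hspd1 and Hspe1 were -1.06 and -0.83. Hspd1 (HSP60), which forms the folding barrel of the matrix chaperonin, was at 311.75 TPM in library 1 and 279.11 TPM in library 2 (295 ± 23.1, SD, n = 2). Hspe1 (HSP10), which caps the barrel, was at 185.19 TPM and 194.1 TPM (190 ± 6.30, SD, n = 2). The TPM ratio of Hspd1 to Hspe1 was 1.68 in library 1 and 1.44 in library 2 (1.56 ± 0.174, SD, n = 2). By expected counts, which are not corrected for length, the ratio was 6.37 and 5.41.

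**Figure D1:**
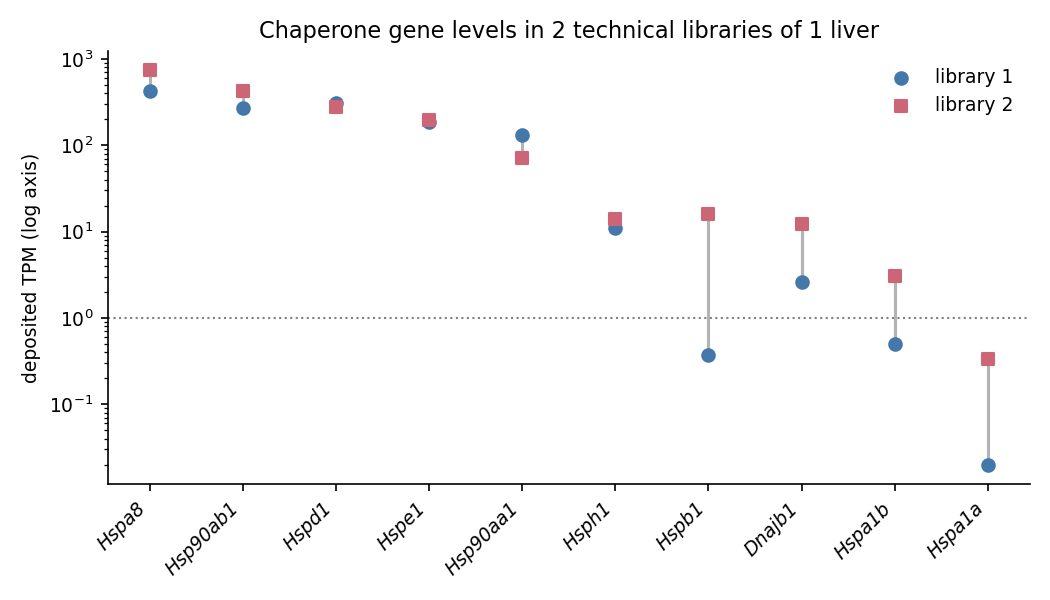
Deposited TPM of the 10 chaperone genes on a log axis, ordered by mean, with a circle for library 1 and a square for library 2; the grey line joins the libraries and the dotted line marks 1 TPM. Hspa8, Hsp90ab1, Hspd1, Hspe1 and Hsp90aa1 lie above 70 TPM in both libraries, and Hspb1 spans 0.37 to 16.09 TPM.

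The plot of TPM by gene shows these levels in order of the mean. Hspa8 lay above Hsp90ab1 in each library, at 426.97 against 269.27 TPM in library 1 and 735.54 against 423.78 TPM in library 2. Across the libraries their ranges did not overlap, although the value of Hspa8 in library 1 was close to that of Hsp90ab1 in library 2. The ranges of Hsp90ab1 and Hspd1 overlapped, and their order changed between the libraries. Hspd1, Hspe1, Hsp90aa1 and Hsph1 followed in that order with no overlap between neighbours. Hsph1, Hspb1, Dnajb1 and Hspa1b overlapped with their neighbours in the order, and Hspa1a lay below the rest in each library. With 2 technical libraries these are descriptions and not tests.

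The 10 genes together held 1339.16 TPM in library 1 and 1748.96 TPM in library 2, or 0.356% and 0.237% of what all nuclear protein-coding genes held. Their sum was higher in library 2 and their share lower, because the TPM of all nuclear protein-coding genes together was higher there. Of the TPM of the 10 genes, 98.9% in library 1 and 97.4% in library 2 came from Hspa8, Hsp90aa1, Hsp90ab1, Hspd1 and Hspe1. A level of at least 1 TPM in both libraries was met by 7 of the 10 genes, and by 55.3% of the 15303 nuclear protein-coding genes with a count. In library 2 alone, 9 of the 10 reached it, with Hspa1a below.

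The next question was how far each gene differed between the libraries after scaling. Rounded expected counts were scaled with edgeR TMM, and a log2 fold is library 2 over library 1. A gene needed 20 counts over both libraries, which 9 of the 10 had. Hspa1a, with 15 counts in all, did not. A gene is called past the threshold where its log2 fold is 1 or more in either direction. The 95% exact binomial interval beside each fold covers counting error only, since reads copied by PCR are not independent molecules.

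Of the 9 genes, 3 were past the threshold as higher in library 2, namely Hspb1, Hspa1b and Dnajb1. Over all 12728 genes, 33% were past it in that direction. A further 2, Hsp90aa1 and Hspd1, were past it as lower, beside 24% of all genes. The remaining 4 were not past it in either direction, and 57% of all genes were past it in either. The counts of chaperones past the threshold are near these background shares. The median log2 fold of the 9 was 0.09, beside 0.04 over all genes.

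Hspb1 had the highest log2 fold of the 9, at 4.46 (3.42 to 6.03). Hspa1b followed at 1.68 (1.12 to 2.33), then Dnajb1 at 1.32 (1.03 to 1.63). These are the small heat shock protein, an inducible HSP70 and a J-domain partner. Hspa1a, from its 1 and 14 counts, had a log2 ratio of 2.95 (0.77 to 8.89), given as a counting interval without a call. The inducible HSP90 did not move with them: Hsp90aa1 was at -1.37 (-1.43 to -1.31).

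Hsp90ab1 was at 0.55 (0.51 to 0.59) and Hspa8 at 0.09 (0.06 to 0.11), both short of the threshold. Hsph1 was at -0.54 (-0.68 to -0.40). The mitochondrial genes lay on either side of the lower threshold, with Hspd1 at -1.06 (-1.10 to -1.03), just past it, and Hspe1 at -0.83 (-0.92 to -0.74), just short of it. These directions depend on the scaling. Total-count scaling raised every log2 fold by 0.58 and the TPM ratio raised the median gene by 0.87, and under both no chaperone was lower by the threshold. Hsph1 was then at 0.04 by total count and 0.34 by TPM, and Hspe1 at 0.07 by TPM, so their direction reversed. By total count, 42.2% of all genes were past the threshold as higher and 7.67% as lower, and Hsp90ab1 joined the higher genes at 1.13.

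The folds followed base composition. The GC content of a gene is that of its longest protein-coding transcript in GENCODE M21, and over 12641 tested nuclear genes Spearman's rho between the log2 fold and GC was 0.888. Over the 9 chaperones it was 0.883. Both are descriptions across genes of the same pair of libraries and carry no p. Among all genes the median log2 fold was -1.68 below 40% GC, -1.20 from 40 to 45%, -0.42 from 45 to 50%, 0.87 from 50 to 55%, 2.62 from 55 to 60% and 4.0 from 60% up.

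Coding sequence shows the contrast. The stretches below are 60 bases from the coding part of 2 genes that were higher in library 2 and 2 that were lower, and the capitals mark G and C.

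Hspb1-201, chr5:135888372-135888431, plus strand, 56.7% GC: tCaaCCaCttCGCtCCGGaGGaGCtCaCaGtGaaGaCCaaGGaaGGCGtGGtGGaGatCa
Hspa1b-201, chr17:34957985-34958044, minus strand, 68.3% GC: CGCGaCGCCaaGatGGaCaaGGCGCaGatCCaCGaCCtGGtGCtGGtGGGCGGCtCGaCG
Hspd1-201, chr1:55081113-55081172, minus strand, 46.7% GC: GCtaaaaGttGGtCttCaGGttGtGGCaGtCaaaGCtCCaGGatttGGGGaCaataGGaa
Hsp90aa1-201, chr12:110693711-110693770, minus strand, 36.7% GC: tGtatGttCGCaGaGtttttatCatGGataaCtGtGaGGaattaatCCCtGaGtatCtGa

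Over the whole coding part, GC was 64.8% in Hspb1, 65.3% in Hspa1b and 65.0% in Hspa1a, against 44.0% in Hspd1, 43.8% in Hspe1 and 43.4% in Hsp90aa1. Hspa8 had 49.1% and Hsp90ab1 51.2%. The inducible HSP70 copies and Hspb1 are thus the GC-rich members, and Hsp90aa1 and the mitochondrial pair the GC-poor ones in their coding parts.

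A loess curve of the log2 fold on GC over all tested nuclear genes gave the fold of a typical gene at each composition. Hspb1 (61.7% GC) lay 0.43 above the curve, Dnajb1 (52.7%) 0.37 above and Hsp90ab1 (51.0%) 0.14 above. Hsph1 (47.4%) differed from the curve by -0.10, Hsp90aa1 (43.7%) by -0.32, Hspa8 (51.2%) by -0.38 and Hspd1 (46.8%) by -0.50. The median distance from the curve over all genes was 0.40 in size, so these 7 lay about as near to it as genes in general. Hspe1 (51.7%) and Hspa1b (58.1%) were farther, at -1.44 and -1.38, and 90% and 89.2% of genes lay nearer. After subtraction of the curve 0 of the 9 chaperones were past the threshold as higher, beside 10.7% of all genes, and Hspe1 and Hspa1b were past it as lower, beside 8.45%. Hspe1 has a coding part of only 306 bases, at 43.8% GC, in a transcript of 774 bases at 51.7%. For Hspb1 the longest coding transcript is Hspb1-202, which had 0 expected counts in both libraries, while Hspb1-201 has 60.7% GC. Dnajb1-201 has 2996 bases in M21 and 2263 as deposited. The distances of Hspb1 and Dnajb1 from the curve rest on the M21 transcripts.

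**Figure D2:**
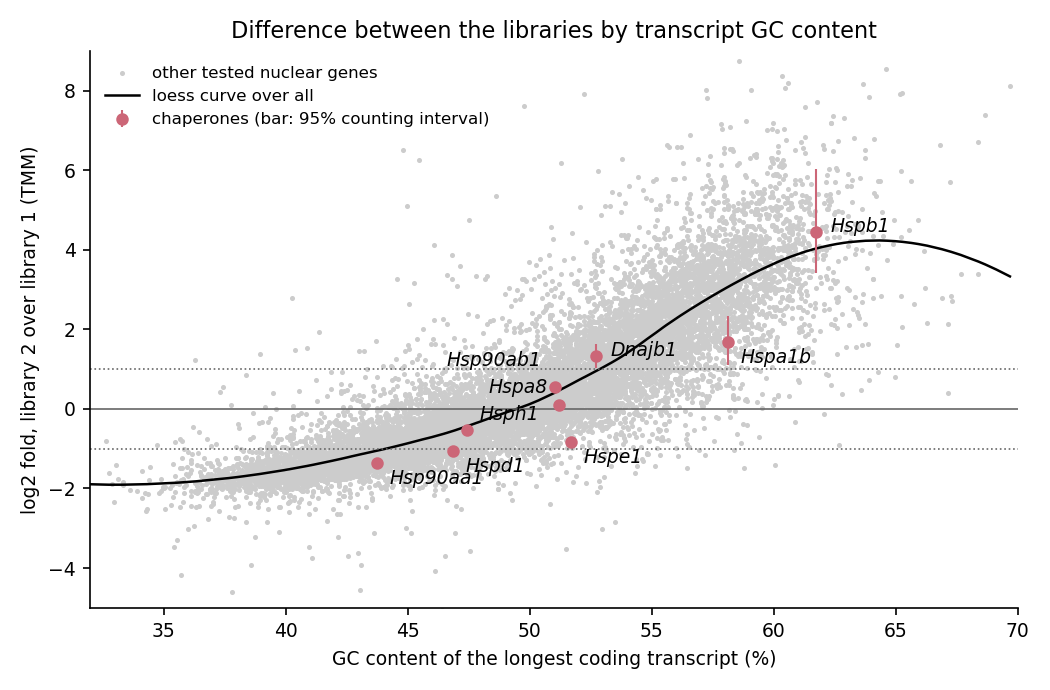
Log2 fold of library 2 over library 1 (TMM) against the GC content of the longest coding transcript in percent, for tested nuclear genes (grey), with the loess curve over all of them and 9 chaperones in red with 95% counting intervals; dotted lines mark log2 folds of -1 and 1, and a few genes lie outside the axes. Hspb1, at 4.46, and Hsp90aa1, at -1.37, lie near the curve, while Hspa1b and Hspe1 lie 1.38 and 1.44 below it.

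The plot of fold on GC shows the chaperones spread along the course of the other genes. GC content moved with the fold for the chaperones as for all genes, and its part in the differences was not tested. Markers of other liver cells were counted in the same way. For scale, the median TPM of nuclear protein-coding genes was 1.55 in library 1 and 4.44 in library 2, and 33% of all genes were past the threshold as higher and 24% as lower. Of 8 Kupffer cell markers 5 were past the threshold as higher and 1 as lower, with summed levels of 70.7 and 177 TPM. Of 8 endothelial markers 3 were higher and 0 lower (34.9 and 119 TPM summed), and of 7 tested blood markers 5 were higher and 2 lower (139 and 2054 TPM). The higher blood markers were the globin genes and Cd79a, and nearly all of the blood sum came from the globin genes. The lower ones were Ms4a1, at -1.22, and Ptprc, at -1.10. Of 8 stellate cell markers 4 were higher and 1 lower (170 and 163 TPM), and of 8 cholangiocyte markers 2 were higher and 2 lower (53.4 and 73.9 TPM). Hepatocyte markers, all 8 of them above 1 TPM in both libraries, summed to 32771 TPM in library 1 and 68659 TPM in library 2, with 1 higher and 1 lower. After subtraction of the curve, beside 10.7% of all genes higher and 8.45% lower, the counts of higher and lower markers were 0 and 0 for Kupffer cells, 1 and 0 for endothelium, 3 and 0 for blood, 2 and 3 for stellate cells, 1 and 1 for cholangiocytes, and 1 and 0 for hepatocytes. The 3 blood markers were globin genes. Acinar markers, of a tissue near the liver, summed to 1.12 and 9.38 TPM, most of it from Cela1 at 0.86 and 8.28 TPM. Cela1 was the only acinar marker with enough counts. Pnlip, Cel and Amy2a5 had counts in library 1 only, and Cela2a and Ctrb1 in library 2 only. Prss2 and Cpa1 were at 0 in both libraries. In bulk RNA fewer cells of a type and less RNA per cell cannot be told apart, and the part of these cells in the chaperone values was not tested.

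Immediate early genes can respond within minutes to handling of a tissue, and they were listed together with other stress genes. Of 14 tested, 7 were past the threshold as higher in library 2, 0 as lower and 7 as neither, beside 33% higher and 24% lower over all genes. Their median log2 fold was 1.02, beside 0.04, and their median GC was 54.6%, beside 49.6%. After subtraction of the curve 1 was higher and 3 were lower, beside 10.7% and 8.45% of all genes. Zfp36, an mRNA-decay factor, was at 48.0 and 132 TPM, with a log2 fold of 0.57, short of the threshold. Dusp1, a phosphatase of MAP kinases, was at 26.2 and 74.1 TPM, with a log2 fold of 0.63, also short of it. Egr1 was at 9.45 and 28.1 TPM, with a log2 fold of 0.69. After the curve Zfp36 was at -0.88, Dusp1 at -1.16 and Egr1 at -2.08. Junb was the 1 gene higher after the curve, at 1.85, with a log2 fold of 5.99, and was named after its values were seen. The relation of these genes to Hspa1b, Dnajb1 and Hspb1 was not tested.

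Several chaperones are expressed as more than 1 transcript, and for 3 of them the deposited isoform shares differed widely between the libraries. The isoform share is the percent of the TPM of a gene that a transcript takes. Among genes with a mean level of at least 10 TPM and more than 1 transcript, the transcript with the largest share differed between the libraries in 31.8% of 3520 genes. Among the chaperones it differed in 3 of 6: Hspa8, Hsp90aa1 and Hsp90ab1. In Hsph1, Hspd1 and Hspe1 the leading transcript was the same in both.

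In Hspa8, the full-length Hspa8-201 held 20.27% in library 1 and 65.29% in library 2, while the shorter coding transcript Hspa8-202 held 70.04% and 32.12%. Their expected counts were 4362 and 16351 for Hspa8-201, and 12515 and 6676 for Hspa8-202. Hspa8-204, a retained-intron fragment of 456 bases, held 7.21% and 0.92%. The log2 fold of the gene as a whole was 0.09 by TMM, 0.66 by total count, 0.78 by TPM ratio and -0.38 after the GC curve, short of the threshold in each. The larger share of its counts passed from Hspa8-202 to Hspa8-201. Hspa8-202 lacks the first 318 bases of Hspa8-201, which are 66.4% GC, and 57 coding bases farther on, which encode 19 residues. The coding bases are shown with 15 bases of flank on each side, and capitals mark the stretch that Hspa8-202 lacks (chr9:40802739-40802795, plus strand, 54.4% GC).

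Hspa8-201: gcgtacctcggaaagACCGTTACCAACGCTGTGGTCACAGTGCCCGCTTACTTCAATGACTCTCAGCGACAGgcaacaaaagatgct

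In Hsp90aa1, Hsp90aa1-202 held 7.64% in library 1 and 63.1% in library 2. Hsp90aa1-201 held 67.34% and 30.87%, and the retained-intron fragment Hsp90aa1-205, of 487 bases, held 24.82% and 6.02%. Both coding transcripts have the same coding bases, 2199 in all. They differ at the ends: Hsp90aa1-202 has 106 bases at its start, at 68.9% GC, and 423 bases at its end, at 48.2% GC, that Hsp90aa1-201 lacks, and Hsp90aa1-201 has 100 bases of its own at 53.0% GC. The shared part is 42.1% GC over 2752 bases. The transcript with the GC-rich first exon was the larger in library 2.

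In Hsp90ab1, the full-length Hsp90ab1-201 held 47.19% in library 1 and 98.8% in library 2. Hsp90ab1-208, an annotated coding fragment of 656 bases, held 49.17% in library 1, with 1428 expected counts, and was at 0 in library 2. The bases of Hsp90ab1-208 all lie within Hsp90ab1-201, where they form blocks of 122 and 534 bases. A read from them can therefore belong to either transcript, and only junctions or fragment ends can separate the transcripts. The length that the files give for the gene, an average over its transcripts, was 1527 bases in library 1 and 2499 in library 2. The TPM of Hsp90ab1 in library 1 was thus computed on the shorter length. The same holds for Hsp90aa1, with 2293 and 2980 bases, and for Hspa8, with 1996 and 2250 bases.

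**Figure D3:**
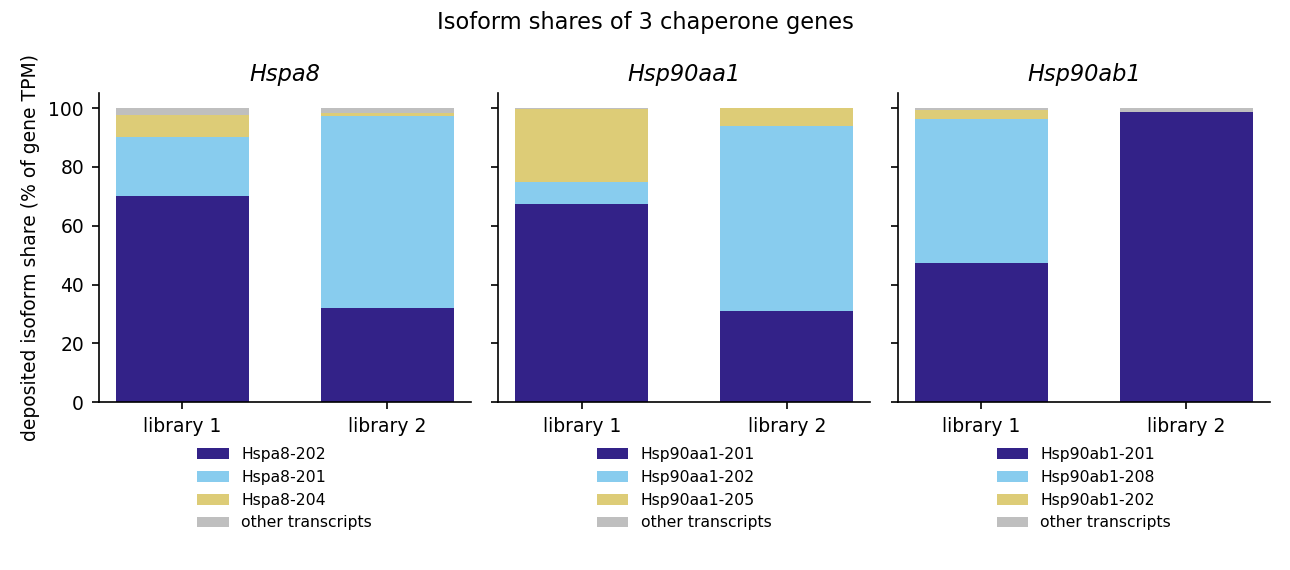
Deposited isoform shares, in percent of the TPM of each gene, as stacked bars for Hspa8, Hsp90aa1 and Hsp90ab1 in library 1 and library 2, with the 3 transcripts of largest mean share in color and the others in grey. Hspa8-201 goes from 20.27% to 65.29%, Hsp90aa1-202 from 7.64% to 63.1% and Hsp90ab1-201 from 47.19% to 98.8%.

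**Figure D4:**
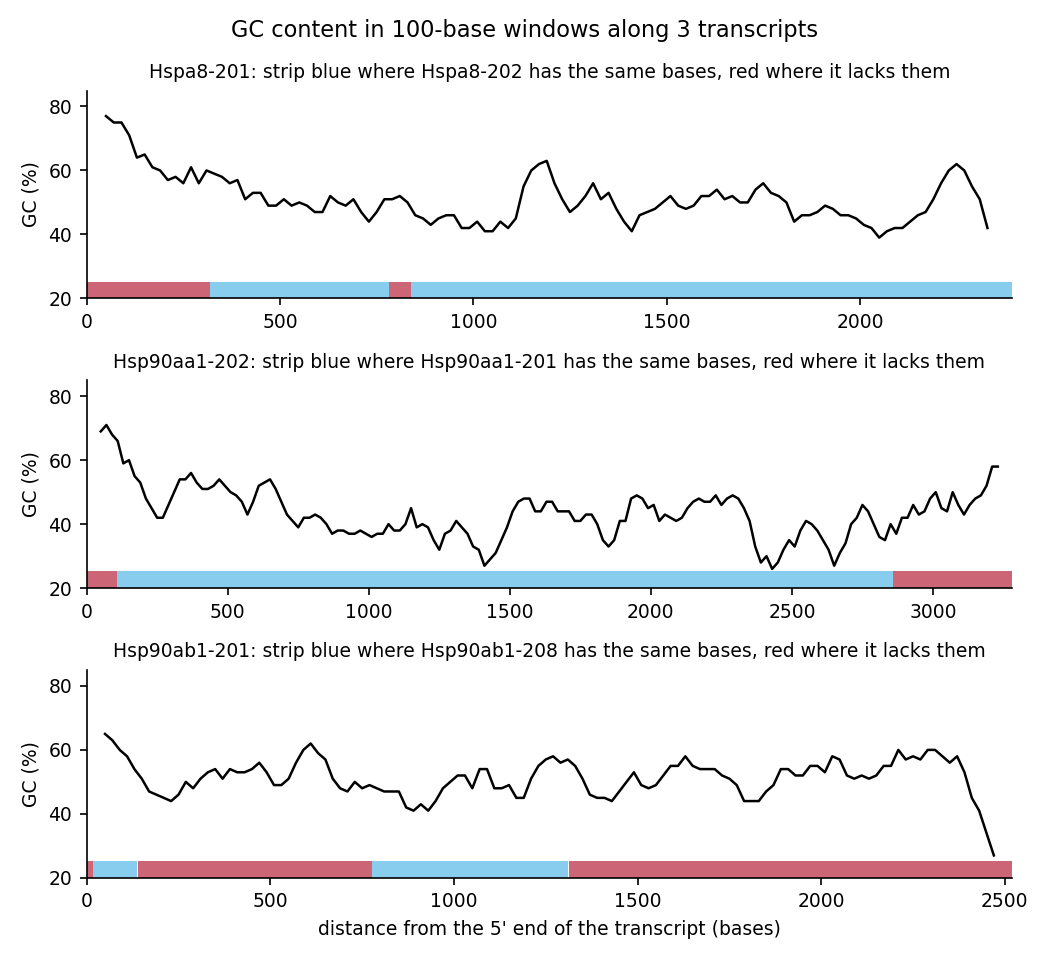
GC content in percent in 100-base windows along Hspa8-201, Hsp90aa1-202 and Hsp90ab1-201, against the distance from the 5′ end in bases; the strip is blue where the named alternative transcript has the same bases and red where it lacks them. The part of Hspa8-201 that Hspa8-202 lacks at the 5′ end is 66.4% GC, and that of Hsp90aa1-202 is 68.9%.

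The plot of isoform shares shows full-length or GC-rich-start transcripts taking the larger share in library 2 in each of the 3 genes, and the plot of GC along the transcripts shows where the alternatives differ. The labels call the libraries technical replicates of 1 animal, and whether the use of start sites differed between them was not tested. The part of base composition and of the division of shared reads in these shares was not tested either. In the other genes the deposited shares moved little. Hspd1-201 held 100% and 98.57%, Hspe1-201 held 99.39% and 98.89%, and the Hsph1 transcript of 3802 bases held 97.19% and 96.26%. Dnajb1, Hspa1a and Hspa1b have 1 transcript each, and all of the Hspb1 share was on Hspb1-201 in both. By posterior mean TPM, however, Hspb1-201 held 56.26% in library 1, where the gene had 6 counts, and 98.9% in library 2, with the remainder on Hspb1-202.

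Several of these genes share much of their sequence with near-identical copies. The deposited posterior SD of the gene count was nevertheless small beside its mean. For Hspa8 it was 16.86 beside 17640 in library 1 and 11.85 beside 23411 in library 2. For Hspd1 it was 6.86 beside 15916 and 1.98 beside 9531. Of the 25-base words in the transcripts of Hspa8, 73.1% also occur in transcripts of other genes, and the share was 55.9% for Hsp90aa1, 53.7% for Hspd1, 53.5% for Hspb1, 52.8% for Hspe1 and 24.8% for Hsp90ab1. For Hsph1 and Dnajb1 it was 0.1% and 0.4%. The copies are mostly processed pseudogenes. Gm15459, which holds 70.27% of the words of Hspa8, had 136 and 117 expected counts, and Gm8355, with 56.39%, had 22.9 and 41.3. Gm12346 holds 51.07% of the words of Hsp90aa1 and had 24.7 and 13.7 counts. These are small beside the counts of the parent genes. Some copies have no entry among the deposited genes, so the posterior SD cannot reflect them. Among these are Gm6210 and Gm7232, with 51.33% and 38.71% of the words of Hspa8, and AC117239.2, with 48.8% of those of Hspe1. A pseudogene of Hspd1, Hspd1-ps3, holds 49.34% of its words, just under the 50% used to name copies, and had 143 and 19.7 counts; it was chosen after its values were seen.

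Genes with levels most like those of each chaperone were found by distance over log2(TPM + 0.1) in the 2 libraries, which with 2 points is a description of level only. Hsp90aa1 lay nearest to Ptp4a1 (131 and 71.4 TPM), Hsp90ab1 to Cth (271 and 425 TPM) and Hspd1 to Idh1 (306 and 276 TPM). Hspe1 lay nearest to Hnrnpa2b1 (185 and 196 TPM) and Hspa8 to Cyp2a12 (389 and 731 TPM). Among the scarcer genes, Dnajb1 lay nearest to Golga2 (2.60 and 12.1 TPM), Hsph1 to Nop56 (10.8 and 13.5 TPM) and Hspb1 to Mcrip1 (0.39 and 17.2 TPM). Hspa1b lay nearest to Hdac7 (0.51 and 3.10 TPM) and Hspa1a to Spib (0.02 and 0.35 TPM).

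The wider chaperone network was compared from lists of 92 other chaperone and cochaperone genes. Of the 83 tested, 29 were past the threshold as higher in library 2, 23 as lower and 31 as neither, with a median log2 fold of 0.00. Over all genes 33% were higher and 24% lower, with a median of 0.04, so the counts for the network are near the background. After subtraction of the GC curve, 7 were higher and 5 lower, beside 10.7% and 8.45% of all genes. The counts for each list below are to be read against the same shares.

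Among other HSP70 and HSP110 proteins, 2 of 9 tested were past the threshold as higher and 3 as lower, and 0 and 1 after the curve, with a median log2 fold of -0.84. Hspa5 (BiP), the HSP70 of the endoplasmic reticulum, was at 451 and 458 TPM, beside 427 and 736 TPM for Hspa8. Hspa9 (mortalin), the HSP70 of the mitochondrial matrix, was at 199 and 225 TPM, and Hspa4, a cytosolic HSP110 relative, at 75.9 and 54.5 TPM. Hspa1l, the third gene of the cluster with Hspa1a and Hspa1b and known from testis, had 0 and 2.19 expected counts and was named after its values were seen.

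Of 12 J-domain genes, 3 were higher and 6 lower by the threshold, and 1 and 1 after the curve, with a median log2 fold of -0.58. Dnaja1, a cytosolic partner of HSP70, was at 246 and 160 TPM, far above Dnajb1. Dnajb9, of the endoplasmic reticulum, was at 87.1 and 39.8 TPM, and Dnajb6, known for holding back protein aggregation, at 70.9 and 47.3 TPM. In both libraries the most abundant J-domain transcript of those listed was thus Dnaja1 and not Dnajb1.

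Of 12 nucleotide exchange factors and other regulators of HSP70, 6 were higher and 2 lower, and 2 and 2 after the curve, with a median of 0.62. St13 (Hip), which stabilises the ADP state of HSP70, was at 108 and 70.7 TPM. Bag1 was at 56.2 and 65.8 TPM, and Grpel1, the exchange factor of the mitochondrial HSP70, at 10.2 and 38.8 TPM. Of 17 HSP90 relatives and cochaperones, 6 were higher and 7 lower, and 1 and 0 after the curve, with a median of 0.57. Hsp90b1 (GRP94), the HSP90 of the endoplasmic reticulum, was at 625 and 420 TPM, above Hsp90ab1 in library 1 and near it in library 2. Fkbp8 was at 3.97 and 192 TPM, with a transcript GC of 63.0%, and Ptges3 (p23), which binds the ATP state of HSP90, at 108 and 57.2 TPM.

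Of 9 small heat shock genes other than Hspb1, 4 had enough counts, of which 2 were higher and 1 lower, and 0 and 1 after the curve, with a median of 0.43. By mean level, Hspb8, a partner of Bag3, came first at 28.6 and 119 TPM, followed by Hspb11 at 11.8 and 7.54 TPM and Hspb6 at 5 and 8.11 TPM. Cryaa, the lens crystallin, and Hspb3 and Hspb9 had 0 counts in both libraries. Of 14 subunits of the cytosolic chaperonin TRiC and of prefoldin, 3 were higher, 2 lower and 9 neither, and 2 and 0 were higher and lower after the curve, with a median of -0.01. Cct8 was at 89.4 and 75.3 TPM, Tcp1 at 73.1 and 63.3 TPM, and Cct4 at 70.3 and 56.9 TPM, each lower than either subunit of the mitochondrial chaperonin.

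Of 16 genes of mitochondrial folding and proteolysis, 6 were higher and 1 lower, and 2 and 0 after the curve, with a median of 0.81. Besides Hspa9, Clpx, the unfoldase of a matrix protease, was at 221 and 166 TPM and Pmpcb, which removes import signals, at 150 and 82.6 TPM. Of 4 tested heat shock factors and their regulators, 2 were higher and 1 lower, and 0 and 0 after the curve, with a median of 1.31. Hsbp1, a negative regulator of Hsf1, was at 38.9 and 52.7 TPM, Hsf2 at 20.6 and 13.4 TPM, and Hsf1, the main activator of the heat shock response, at 0.45 and 7.26 TPM. Hsf3 and Hsfy2 had 0 counts in both.

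**Figure D5:**
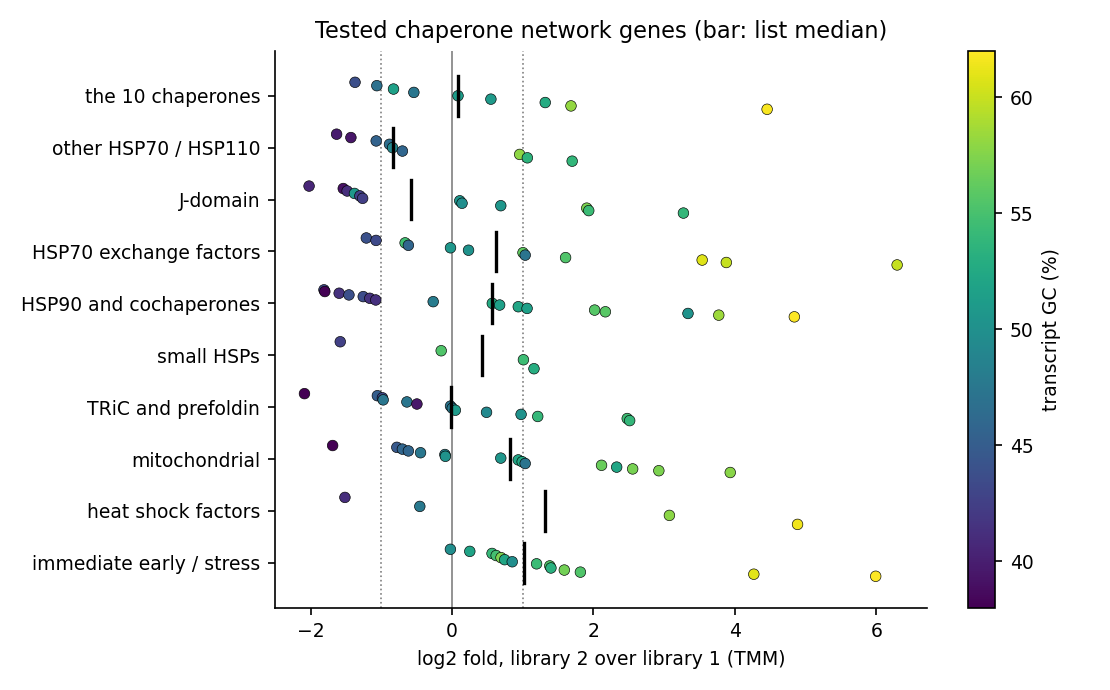
Log2 fold of library 2 over library 1 (TMM) for the tested genes of each chaperone list, a point per gene colored by transcript GC in percent, with a bar at the list median; dotted lines mark log2 folds of -1 and 1. The list medians range from -0.84 for other HSP70 genes to 1.31 for heat shock factors, and in most lists the points of higher GC lie to the right.

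The plot of folds by list shows genes on both sides of 0 in every list, with 7 of the 14 stress genes past 1. The only stress gene below 0 was at -0.02 (-0.41 to 0.37). Of the listed symbols, Hspa14 was not analysed here. The lists share genes, since Hspa9, Dnaja3, Grpel1, Grpel2 and Trap1 stand in 2 of them each.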

How the data were processed

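PolyA RNA sequencing of 1 mouse liver was analysed as 2 technical libraries. The deposited expected counts are unnormalised estimates per gene and transcript, the deposited TPM and FPKM values are normalised to length and depth, and the deposited isoform shares are percent of gene TPM. The authors' bounds of the posterior mean TPM were read as a signal, with a level that is not stated. Per the file descriptions deposited with the samples, alignments used mm10 and the M4 annotation. Aligner, quantification tool and strandedness: not given in the sources used here.

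Symbols, transcripts and coding parts came from GENCODE M21 (GRCm38), and promoters from RefSeq (GRCm38.p6); 42462 of 43346 genes matched. Expected counts were rounded and scaled with TMM in edgeR 4.0.16 (factors 0.818 and 1.22), with a prior count of 0.5 and a summed count of at least 20. With 1 library on each side edgeR's quasi-likelihood test has no residual degrees of freedom, so none was run. The fold calculation was tested on simulated data. GC curves used loess with a span of 0.3. R 4.3.3, Python 3.11.15 and Biopython 1.88 were used; DESeq2 1.42.0 gave alternative size factors.

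The text names the 10 genes, the nearest gene by level of each, copies holding at least 50% of their words with at least 20 counts, and of each list the 3 most abundant genes and those at 0. Some genes that fall under this rule are left unnamed. Several blood and acinar markers were named after their values were seen. The 10 genes and the lists were chosen with earlier results of these data known.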

Additional observations from a re-analysis of the deposited data

How the results depend on the processing

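Of the 9 tested chaperones, 3 were higher and 2 lower by a log2 fold of at least 1. None was lower (0) by total-count scaling or by the TPM ratio, and none was higher (0) after subtraction of the GC curve, where Hspa1b reversed to -1.38. Requiring a summed count of 200 left 1 higher (Dnajb1) and 1 lower (Hsp90aa1), since Hspa1b and Hspb1 were no longer tested and Hspd1 was at -0.96. Hspb1, Dnajb1, Hsp90ab1, Hsp90aa1 and Hspd1 kept their direction under each alternative tried; Hspa8 was at -0.38 after the curve, and Hsph1 and Hspe1 reversed as given above. DESeq2 size factors, TMM without mitochondrial genes, no count filter, summing Hspa1a with Hspa1b, and posterior mean counts left both counts within 1.5 times; posterior means, and the leaving out of each library for detection, were chosen after seeing the data. Without either library in turn, summed TPM was 1339 or 1749, the ratio of Hsp90ab1 to Hsp90aa1 2.05 or 5.97, and the share of Hspa8-201 20.27 or 65.29%. No paired analysis was possible because both libraries form 1 group. Low counts limit Hspa1a, Hspa1b and Hspb1, above all in library 1.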
